A study of Sus scrofa with 8 samples.

Results

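The HOX cluster genes were taken from the authors' edited pig gene annotation as every gene whose name is HOX followed by A, B, C or D and a number. The rule found 36 genes among the 30390 genes of the annotation, all 36 of them among its 20661 protein-coding genes with a coding model. The study dissected tracheal submucosal glands from newborn pigs, 4 wild-type and 4 CFTR-/- (animals without the CFTR anion channel), and made 1 droplet-based 3′ single-cell RNA library from each animal. A single annotation on the Sscrofa11.1 assembly, with chromosome positions counted from 1, was used to count the reads of all 8 libraries. It holds no value per animal, so the results below are single measurements on gene models and on the genome under them, with no replicate error, no depth and no comparison between the genotypes.

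HOX genes encode transcription factors that bind DNA through a homeodomain, a small fold of helices. They stand in clusters that arose by duplication, and genes in the same place in different clusters are paralogs that carry the same number. In the embryo, low-numbered genes act toward the head and high-numbered genes toward the tail, and several HOX genes remain active in adult tissues. HOXA5, for example, is required for normal growth of the trachea and lung.

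The 36 genes lay in 4 clusters on 4 chromosomes. HOXA held 11 genes in 107 kb (chr18:45373340-45480306, plus strand). HOXB held 8 genes in 166 kb (chr12:24784953-24950661, minus strand). HOXC held 9 genes in 117 kb (chr5:19151096-19268267, plus strand) and HOXD held 8 genes in 96.0 kb (chr15:81893997-81990026, plus strand). Within each cluster all members were on the same strand, whereas 50.2% of all neighboring pairs of protein-coding genes shared a strand. Read along that strand by coding sequence, the gene number fell at every step, in 10 of 10 pairs in HOXA, 7 of 7 in HOXB, 8 of 8 in HOXC and 7 of 7 in HOXD.

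Of 39 HOX genes listed for mammals, HOXB4, HOXB9 and HOXD4 were not among the genes named by this rule. All 13 paralog groups nevertheless had at least 2 members. Group 13, of which HOXA13 and HOXD13 shape the limb tips and the urogenital tract, was present in all 4 clusters. Group 4 was present as HOXA4 and HOXC4, and group 9 as HOXA9, HOXC9 and HOXD9. The RefSeq annotation from which the authors started gave 36 genes by the same rule, and 35 of the 36 had the same exons in both.

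**Figure D1:**
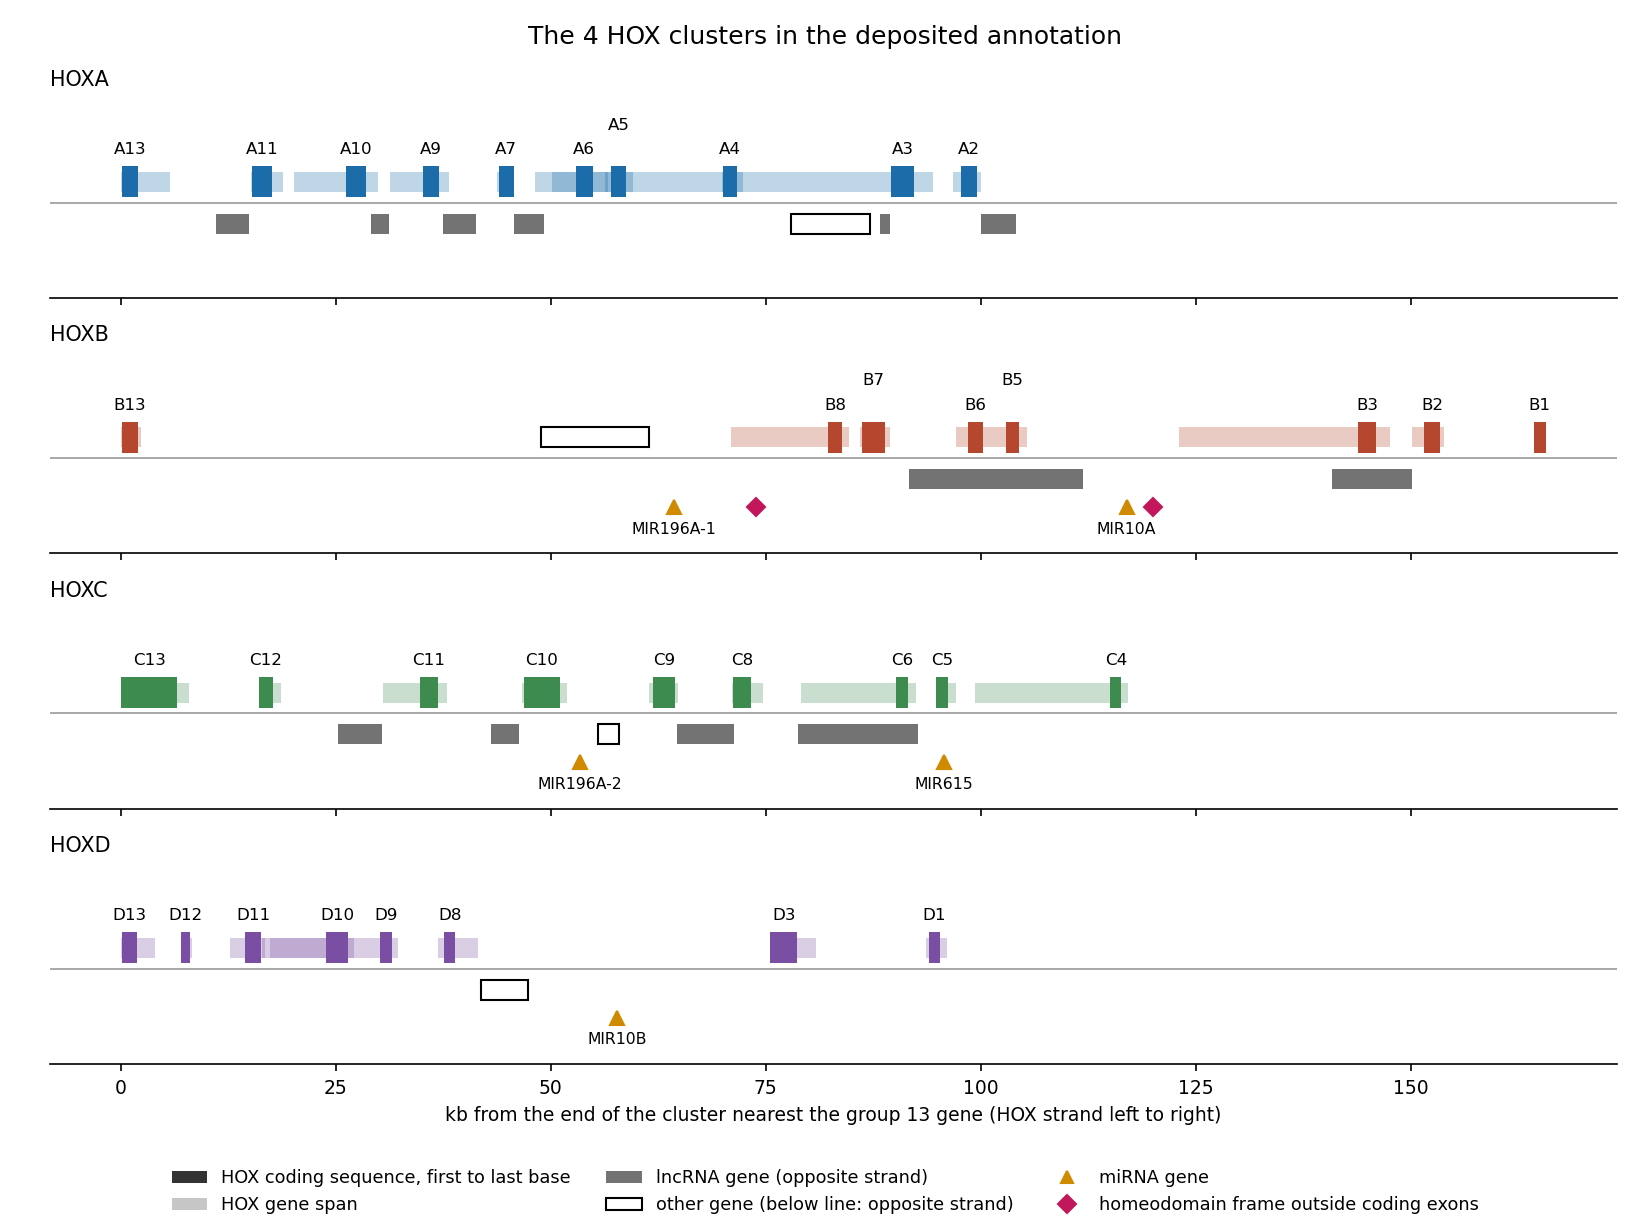
Maps of the 4 HOX clusters, drawn to scale in kb from the end nearest the group 13 gene and turned so that the HOX strand runs left to right, with 35 of the 36 genes drawn. Dark boxes are HOX coding sequences (labels give cluster letter and number), pale boxes are whole gene spans, gray boxes below the line are lncRNA genes, open boxes are other genes, triangles are miRNA genes, and diamonds are the 2 HOXB reading frames for a homeodomain that no coding exon covers. All gray boxes are on the strand opposite to the HOX genes, and the longest stretch without HOX coding sequence is that between HOXB13 and HOXB8.

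The members stood close together. The gap between neighboring gene spans had a median of 5058 bases over 32 pairs, against a median of 14463 bases over 9787 other neighboring protein-coding pairs on the same strand. The HOX pairs were consecutive among HOX genes alone, so another protein-coding gene could lie between them. The other pairs were adjacent among all protein-coding genes. In both sets pairs were taken in order of start position, so a longer span can cover a counted gap. The HOXA3 span, for example, covers the 10349 bases counted between HOXA5 and HOXA4. Measured between coding sequences, the HOX median was 8044 bases, and the gaps ran from 2035 bases between HOXA6 and HOXA5 to 80311 bases between HOXB8 and HOXB13. The closest pair of spans that did not overlap was HOXB5 and HOXB6, 101 bases apart. The widest coding gaps after HOXB8 to HOXB13 were HOXB3 to HOXB5 (39429 bases) and HOXD8 to HOXD3 (36641 bases). Each of these 3 gaps held 1 miRNA gene. By number, HOXB9, HOXB4 and HOXD4, listed for mammals but not found by the rule, fall in these gaps. The widths were therefore read across those numbers. Of the other miRNA genes, MIR196A-2 lay in the coding gap of 10854 bases between HOXC10 and HOXC9, and MIR615 lay within the HOXC5 span. By cluster, the median coding gap was 7095 bases in HOXA, 9675 in HOXB, 10395 in HOXC and 6465 in HOXD. Exons of HOX genes made up 41.6% of the HOXA interval, 14.1% of HOXB, 26.4% of HOXC and 29.9% of HOXD, and coding bases made up 10.4%, 4.22%, 6.42% and 8.61%.

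Spans of neighbors, taken in order of start position, overlapped in 4 of the 32 pairs, beside 4.26% of other same-strand pairs. HOXA3, whose mouse counterpart patterns the thymus and parathyroid, had the longest span at 46262 bases. Its 10 transcripts included ones that began upstream of HOXA6, so that the HOXA6, HOXA5 and HOXA4 models lay within its span. In the same way, the HOXD9 span of 15862 bases contained HOXD10. In all, the spans of 8 members were overlapped by a same-strand gene, beside 7.27% of all protein-coding genes. For HOXC5 that was the miRNA gene MIR615, and for the rest it was another HOX gene. The shortest spans were those of HOXD12 (1366 bases), HOXB1 (1425 bases) and HOXA7 (1977 bases).

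Where 2 models on a strand hold the same exon bases, a 3′ read in those bases cannot be assigned to either alone. In all, 6 of the 36 models shared exon bases with a same-strand neighbor, beside 3.34% of all protein-coding genes. HOXA6 and HOXA5 shared 257 bases, HOXD11 and HOXD9 shared 86, HOXA3 and HOXA6 shared 81, and HOXA3 and HOXA4 shared 59. With at least 100 shared bases asked for, 2 models were left, HOXA6 and HOXA5. The 257 bases of HOXA6 shared with HOXA5 and the 86 bases of HOXD11 shared with HOXD9 lay within the last 500 bases of the HOXA6 and HOXD11 transcripts, where 3′ libraries have most of their reads. That was 2 of 36 members, beside 1.45% of all protein-coding genes.

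The exon plan was nearly uniform in the transcript with the longest coding sequence of each gene. In 33 of 36 genes that coding sequence lay in 2 exons, a plan found in 7.48% of all protein-coding genes. When every coding transcript was asked for, 29 genes had this plan. HOXB3, HOXD11 and HOXD9 were listed with 3 coding exons, and in each the extra break was a gap of 2 bases. The annotation marks these 3 models as corrected against the genome, with 1 base inserted in a codon of HOXB3 and of HOXD11 and 2 bases deleted in a codon of HOXD9. Once gaps under 10 bases were joined, a choice made after seeing the data, all 36 genes had 2 coding exons, beside 7.03% of all protein-coding genes. The homeobox genes outside the clusters had a median of 3 coding exons over 95 genes.

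The intron between the coding exons was short, with a median of 829 bases. It ran from 150 bases in HOXD12, through 321 in HOXD1 and 348 in HOXD9, to 2105 in HOXB7, 3151 in HOXC10 and 5478 in HOXC13. The same intron had a median of 1850 bases in 1416 other genes with 2 coding exons and of 1837 bases in 19 homeobox genes outside the clusters. The first coding exon had a median of 576 bases and the second of 268 bases. The second exon was the longer one in 5 genes, all of groups 2 and 3: HOXA2, HOXB2, HOXA3, HOXB3 and HOXD3. The encoded proteins had a median of 303 residues, from 217 in HOXB7 to 443 in HOXA3.

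**Figure D2:**
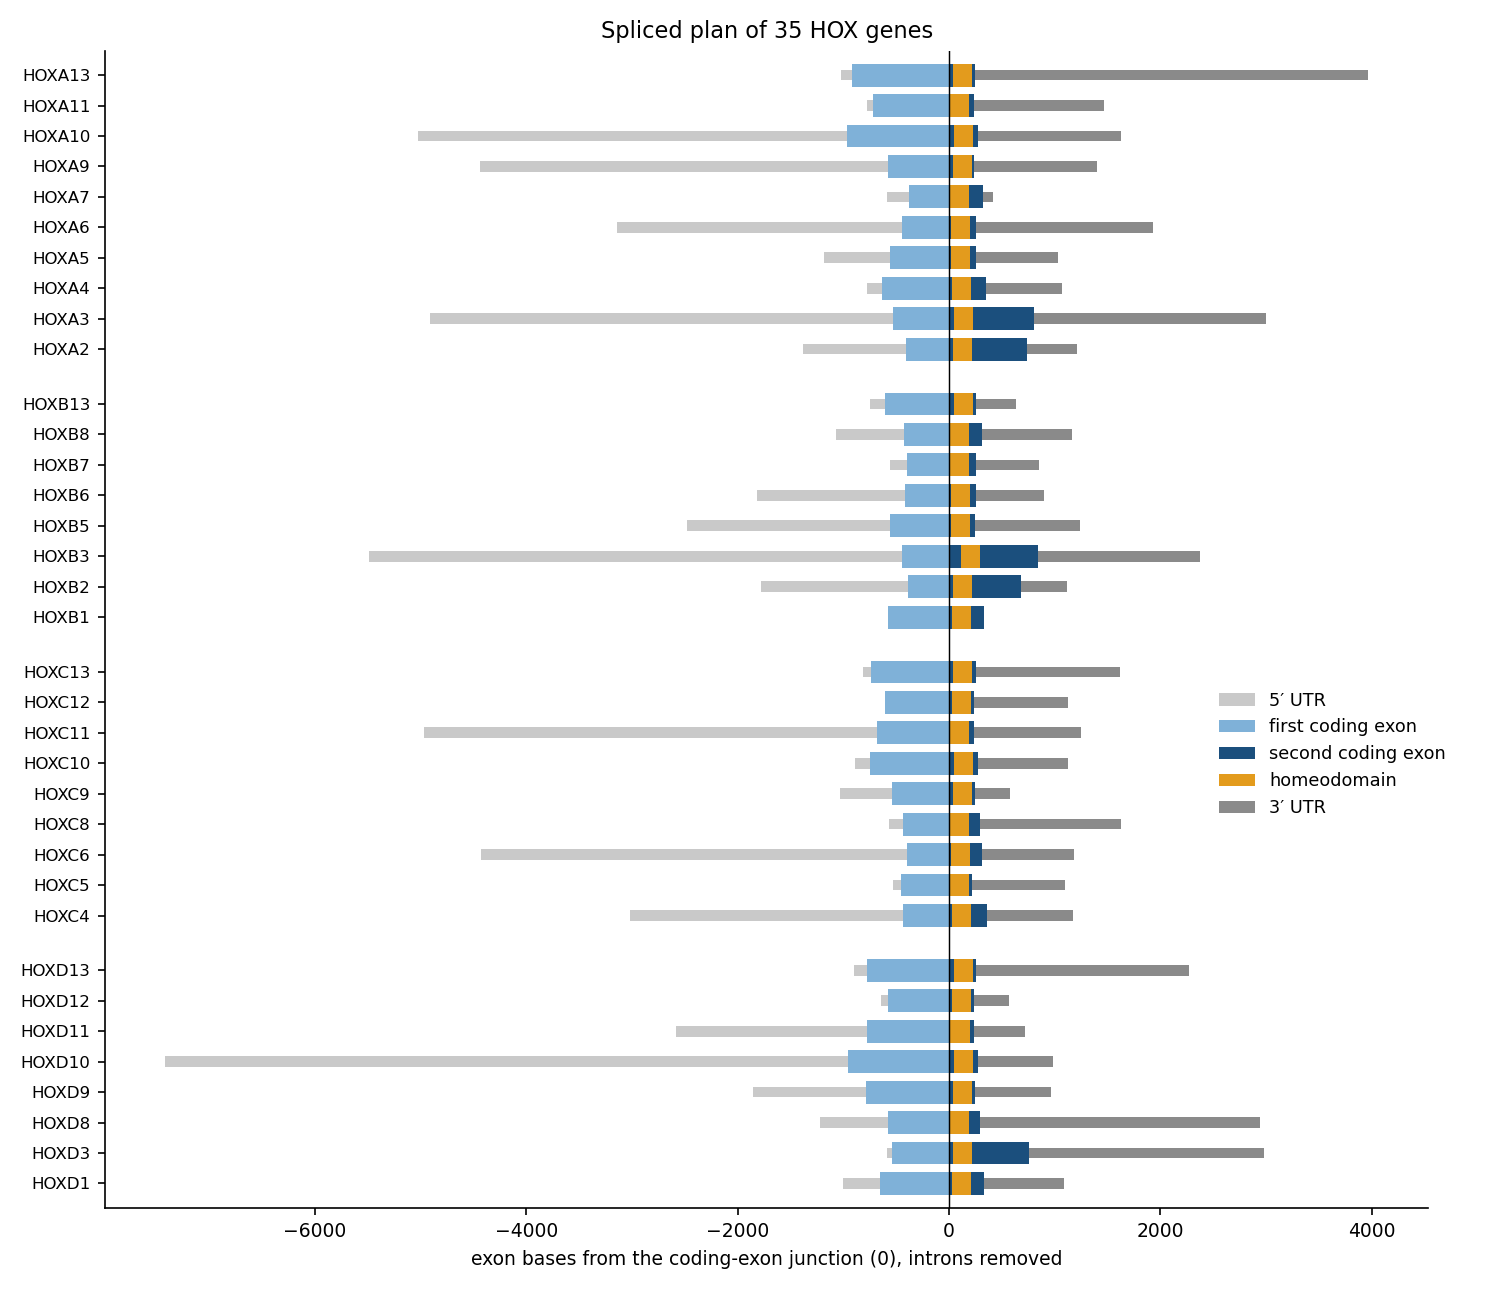
Spliced plan of 35 HOX genes, taken from the transcript with the longest coding sequence, with introns removed and the junction of the coding exons at 0. The x axis is in exon bases, negative toward the 5′ end; thick bars are coding exons, orange is the homeodomain and thin gray bars are UTRs. The homeodomain sits just after the junction in every gene drawn, while the UTRs run from 0 bases in HOXB1 to 6464 bases 5′ of the coding sequence in HOXD10.

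The homeodomain lay whole inside the last coding exon in 36 of 36 genes. It began a median of 29 bases after that exon's start, from 8 bases in HOXC5 to 109 in HOXB3. A median of 17.5 residues followed it. HOXA13 and HOXA9 had only 7 residues after it, whereas HOXA3 had 193, HOXB3 185 and HOXD3 179. From the recognition helix motif to the 3′ end of the gene was a median of 974 bases, from 120 to 3746, the latter in HOXA13. At its 5′ side, many HOX proteins carry a short peptide that binds cofactors of the PBC class. The letters YPWM stood before the homeodomain in 10 genes of groups 2 and 4 to 7 (beside 0.0532% of all protein-coding genes), FPWM in 8 genes of groups 2, 3, 5 and 8, and FDWM in HOXB1. Together these letters were present in 20 of the 21 members of groups 1 to 8, all but HOXD1, and in 0 of the 15 members of groups 9 to 13. Any of them was present in 0.165% of all protein-coding genes. Other spellings of the peptide were not searched, so these counts do not show which members lack it. The peptide ended 6 residues before the homeodomain in HOXA7, HOXB7 and HOXC8, but 43 to 52 residues before it in HOXB2, HOXA2 and HOXB3.

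Runs of a single residue also marked some members. An unbroken run of at least 8 alanines was encoded by 7 of 36 genes, beside 1.07% of all protein-coding genes. The longest were 18 alanines in HOXA13, 15 in HOXD13, 13 in HOXD11, 12 in HOXA2, 11 in HOXA11, 10 in HOXA7 and 9 in HOXD8. In people, expansion of alanine runs in HOXA13 and HOXD13 causes malformed hands and feet. HOXC13 had instead a run of 12 glycines, and HOXB3 one of 11.

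Homeodomains were compared over 60 residues. Within paralog groups, identity had a median of 93.3% over 34 pairs, against 60% over 596 pairs from different groups and 73.3% over 86 pairs from neighboring groups. HOXA5 and HOXB5 were identical. By median, group 13 was the least alike after group 12, at 83.3% over 6 pairs. Group 12 was 1 pair, HOXC12 and HOXD12, which shared 80.0%. The lowest pair of all was in group 13, HOXB13 and HOXD13 at 76.7%. Every member, 36 of 36, was nearest to a member of its own group, although HOXB6 was equally near to HOXA6 and HOXB7. RefSeq gives the names largely by likeness to other species, so this agreement is not independent of the rule. Whole proteins were far less alike, with a median of 44.5% within groups and a range of 36.4% to 61.1%.

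**Figure D3:**
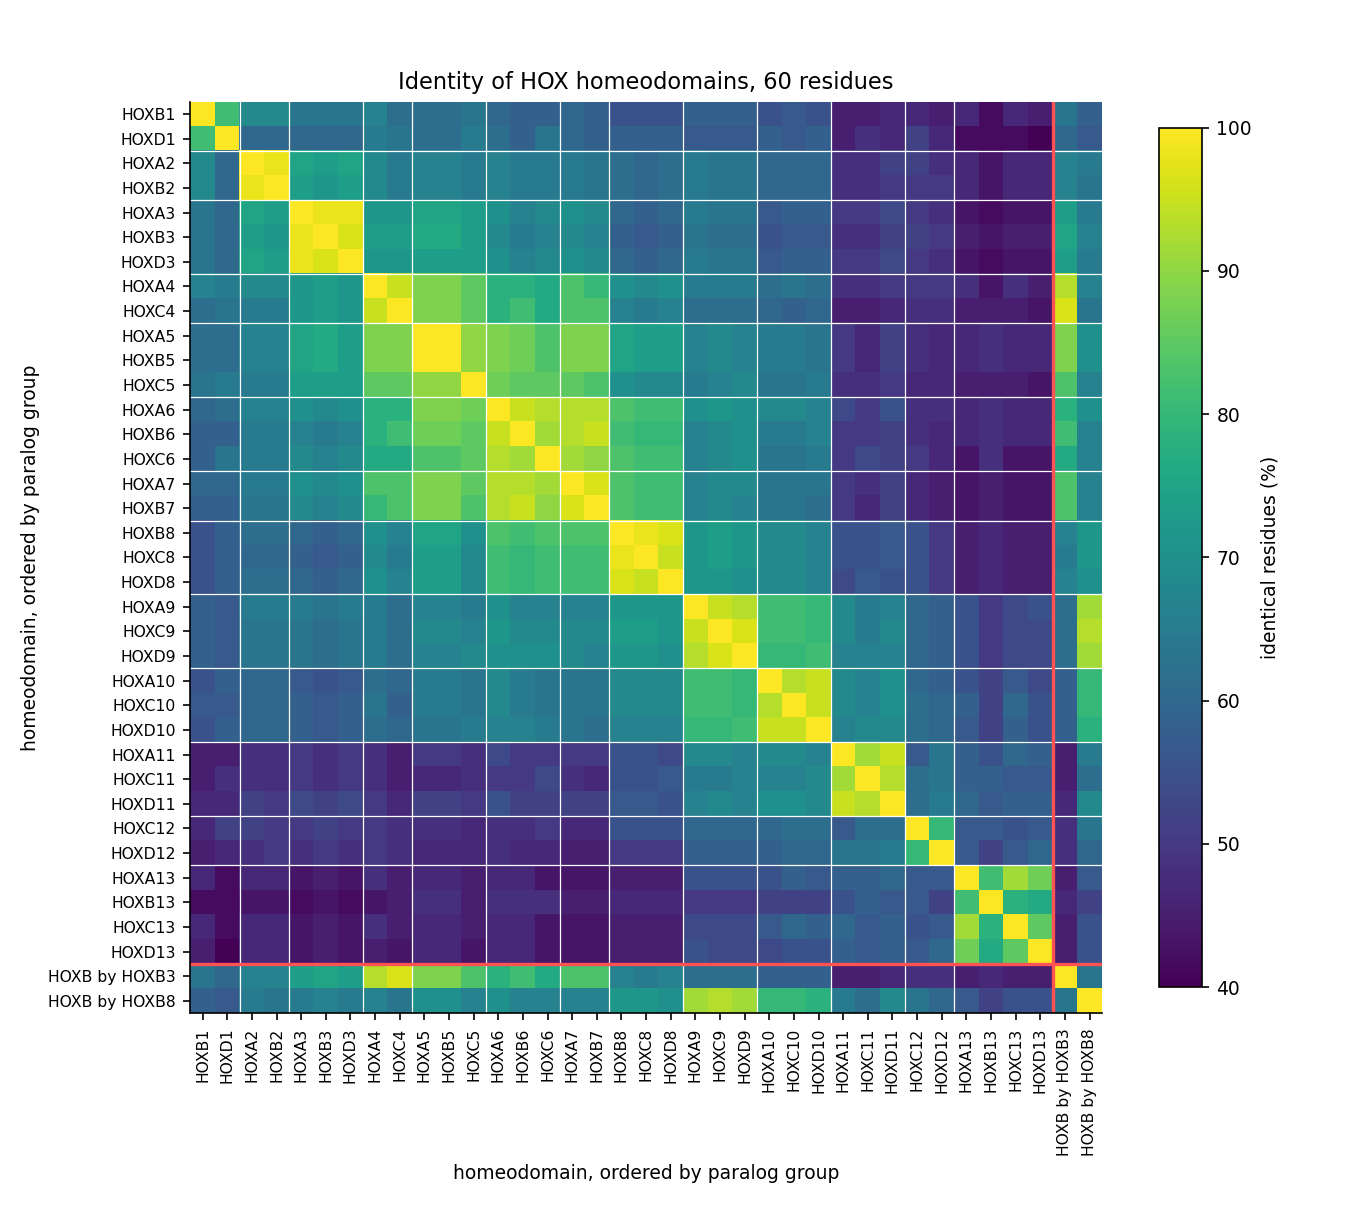
Identity of the 60 homeodomain residues between 35 HOX genes and 2 uncovered reading frames of HOXB (after the red line), as the percentage of identical residues; white lines part the paralog groups. Bright blocks along the diagonal are the paralog groups, with a median of 93.3% within them over all 36 genes, and the last 2 rows are bright against group 4 and group 9.

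The third helix of the homeodomain, which lies in the major groove of DNA, holds the residues WFQNRR. All codons for these residues were searched on both strands (18 bases). The 4 clusters, 486 kb in all, held 39 matches, or 80.3 per Mb, against 134 matches and 0.0550 per Mb on the assembled chromosomes. The 134 include the 39. Since the clusters were bounded by homeodomain genes chosen by name, a high density there was set in advance. All 39 were on the HOX strand. The translated coding sequences of 114 protein-coding genes (0.552%) held WFQNRR, among them all 36 HOX genes and 42 of the 95 homeobox genes outside the clusters. In the clusters, 36 matches were in coding exons of the 36 HOX genes, and 3 were in no coding exon. The 2 in HOXB are shown, with HOXC9 as the member nearest to the second, in windows of 30 bases with the codons of WFQNRR in capitals:
HOXB frame near HOXB3, chr12:24830642-24830671, minus: aagattTGGTTCCAGAACCGGCGAatgaag
HOXB frame near HOXB8, chr12:24876760-24876789, minus: aaaatcTGGTTTCAGAACCGGCGGatgaaa
HOXC9, chr5:19215455-19215484, plus: aaaatcTGGTTTCAGAACCGAAGGatgaag

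Neither HOXB frame had a stop codon in its homeodomain window. The frame near HOXB3 lay between HOXB3 and MIR10A, 3090 bases from the HOXB3 model and 2978 from MIR10A. It was open for 139 codons before the motif and 70 after it, and 58 of its 60 residues (96.7%) were those of HOXC4, against at most 88.3% for members of any other group. The frame near HOXB8 lay in an intron of 8383 to 10687 bases that is present in all 3 HOXB8 transcripts. It was open for 125 codons before the motif and 19 after, and 56 of 60 residues (93.3%) were those of HOXC9, with at most 80.0% for another group. These frames thus stood nearest to groups 4 and 9, at the places in the HOXB order where those numbers were not among the named genes. Whether they are transcribed was not analysed here.

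For each gene, the 3′ UTR was read from the coding transcript with the most distal 3′ end, as its exon bases past the stop codon. Over the 36 HOX genes it had a median of 865 bases, and over 20625 other protein-coding genes 715 bases. The direction turned with the comparison: the median was 905 bases in 16499 other genes with a name and 1000 bases in the 95 homeobox genes outside the clusters. The longest were those of HOXA13 (3722 bases), HOXD8 (2645 bases) and HOXD3 (2221 bases), followed by HOXA3 (2191 bases) and HOXD13 (2022 bases). These 5 of 36 exceeded 2000 bases, beside 23.1% of all protein-coding genes. By cluster the median was 1159 bases in HOXA, 619 in HOXB, 881 in HOXC and 740 in HOXD, with ranges that overlapped throughout.

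At the short end were HOXB1, HOXA7 and HOXC9. HOXB1, which acts in the hindbrain, was annotated as coding sequence alone, with 0 bases on either side (8.82% of all protein-coding genes had no 3′ UTR), and HOXA7 had 90 bases after its stop codon. Those were 2 of 36 genes under 100 bases, beside 15.7% of all protein-coding genes. HOXC9 had 330 bases and HOXD12 had 333. The 5′ UTR, read from the coding transcript that begins farthest upstream, had a median of 320 bases, against 185 in other genes. The median was 206 bases in other genes with a name and 284 in the 95 homeobox genes outside the clusters. The HOX median was 558.5 bases in the transcripts with the longest coding sequence, and no value for other genes is given for that reading. By the first reading, 13 of 36 exceeded 1000 bases, beside 9.09% of all protein-coding genes. HOXD10 had 6464 bases, HOXB3 5041 and HOXC11 4291, while HOXB1 and HOXC12 had none, beside 11.3% without one. In 16 of 36 members the 5′ UTR was longer than the 3′ UTR, each read from the transcript reaching farthest on its side. The share of all protein-coding genes was not computed for this.

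The last 50 bases of each model were searched, on the strand of the gene, for the canonical poly(A) hexamers AATAAA and ATTAAA. They were present in 27 of 36 HOX genes, beside 60.9% of all protein-coding genes. The signal began a median of 22 bases before the end, from 6 bases in HOXB7 to 46 in HOXD9. The 9 without one were HOXA3, HOXA6, HOXA7, HOXA13, HOXB1, HOXC8, HOXC12, HOXD12 and HOXD13. They included the longest 3′ UTR, that of HOXA13, and the shortest, those of HOXB1 (0 bases) and HOXA7 (90 bases). For HOXB1 the last 50 bases were therefore coding sequence. Most members rested on computed models: only HOXA5, HOXA10 and HOXA13 had a curated transcript, beside 19.3% of all protein-coding genes. Separately, 25 of 36 had only 1 transcript, beside 49.5% of all protein-coding genes. HOXA10 had 14 of the 75 transcripts.

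HOXA5 was the only member that the authors had edited. Its 3′ end was at position 45432918 of chromosome 18 in their annotation and at 45432723 in RefSeq, an extension of 195 bases that took the 3′ UTR from 582 to 777 bases. The 3′ end differed from RefSeq in 0.993% of protein-coding genes. No poly(A) signal lay in the 50 bases before the RefSeq end, and one began 17 bases before the new end. The new end was still 10349 bases short of HOXA4, and 40.5% of the added bases were soft-masked repeat sequence. HOXA6, whose model runs into HOXA5, kept its RefSeq end, so the 257 shared bases stood in both annotations.

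Between the members lay 21 other genes. Of these, 12 were lncRNA genes, 6 in HOXA, 2 in HOXB, 4 in HOXC and 0 in HOXD, and all 12 were on the strand opposite to the HOX genes. They had 2 to 5 exons and a median of 2592 exon bases. No share over all lncRNA genes was computed for the number or strand of these 12. Exon bases were shared on opposite strands with 9 HOX genes, beside 4.36% of all protein-coding genes. The most were 899 bases between LOC106505099 and HOXB3 and 754 between LOC106506841 and HOXA9. In 7 members a lncRNA began within 1 kb upstream and ran away from the gene, beside 2.89% of all protein-coding genes. Among them, the starts lay 7 bases apart at HOXB2, 33 at HOXA9, 57 at HOXC11, 263 at HOXA11, 439 at HOXC10 and 915 at HOXA6. Each lncRNA carried only a LOC identifier.

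Another 9 genes lay inside the clusters. LOC110257526 in HOXA, LOC102167757 in HOXC and LOC110257186 in HOXD were annotated as protein-coding, with 325, 303 and 95 residues, and all 3 were on the strand opposite to the HOX genes. LOC100523635, a miscellaneous RNA, lay between HOXB8 and HOXB13 on the HOX strand. The other 5 were miRNA genes. Outside, EVX1 lay 42135 bases before HOXA13 and EVX2 9002 bases before HOXD13, both homeobox genes on the opposite strand. Other genes next to the clusters were LOC106506836 (protein-coding, 2370 bases beyond the 3′ side of the HOXA cluster), TTLL6 and SKAP1 (29759 bases before HOXB13 and 104672 beyond HOXB1), LOC106507255 and LOC102159203 (38945 and 23285 bases from HOXC) and MTX2 (71354 bases beyond HOXD1).

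The miRNA genes of HOX clusters belong to the miR-10, miR-196 and miR-615 families, small RNAs that pair with target mRNAs chiefly through a seed at bases 2 to 8. MIR10A and MIR196A-1 lay in HOXB, MIR196A-2 and MIR615 in HOXC, and MIR10B in HOXD, all on the HOX strand, and HOXA held none in this annotation. Their mature sequences were read from the RefSeq genome at the annotated positions and are shown because the comparison with HOX 3′ UTRs rests on them, with the seed in capitals:
miR-10a-5p, MIR10A: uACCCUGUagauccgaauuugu
miR-10b, MIR10B: uACCCUGUagaaccgaauuugu
miR-10a-3p, MIR10A: cAAAUUCGuaucuaggggaau
miR-196a, MIR196A-1 and MIR196A-2: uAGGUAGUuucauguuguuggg
miR-615, MIR615: uCCGAGCCugggucucccucu

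The seed was the same in miR-10a-5p and miR-10b, and the 2 genes of miR-196a gave the same mature sequence. A match to the miR-196a seed (ACTACCT) was present in the 3′ UTR of 6 of 36 HOX genes, HOXC8, HOXB6, HOXB7, HOXD1, HOXA9 and HOXA5, beside 4.75% of all protein-coding genes. HOXC8 had 3 matches, HOXA9 had 2 and the others 1 each. In sites per kb of 3′ UTR this was 0.235 in HOX genes and 0.0377 in other genes. For the shared miR-10 seed (ACAGGGT), 3 HOX genes had a match, HOXB3, HOXD1 and HOXA3, beside 7.52% of all protein-coding genes. The miR-615 seed (GGCTCGG) was matched in HOXA3 alone, beside 5.79%, and the miR-10a-3p seed (CGAATTT) in HOXA11 alone, beside 1.87%. A match of letters is a description and shows no binding.

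HOXB8, a gene of the trunk, had no miR-196a seed match but the longest complementarity. In mouse embryos, miR-196 is known to direct cleavage of Hoxb8 mRNA. In the pig HOXB8 3′ UTR, 419 bases after the stop codon, 21 of 22 bases were complementary to miR-196a, and the remaining base formed a G-U pair inside the seed. The next most complementary 3′ UTRs reached 17 bases, and HOXB8 was the only one of 20661 genes with 20 or more. The site is shown with the complementary bases in capitals:
HOXB8 3′ UTR, chr12:24866404-24866425, minus: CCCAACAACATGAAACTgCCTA

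**Figure D4:**
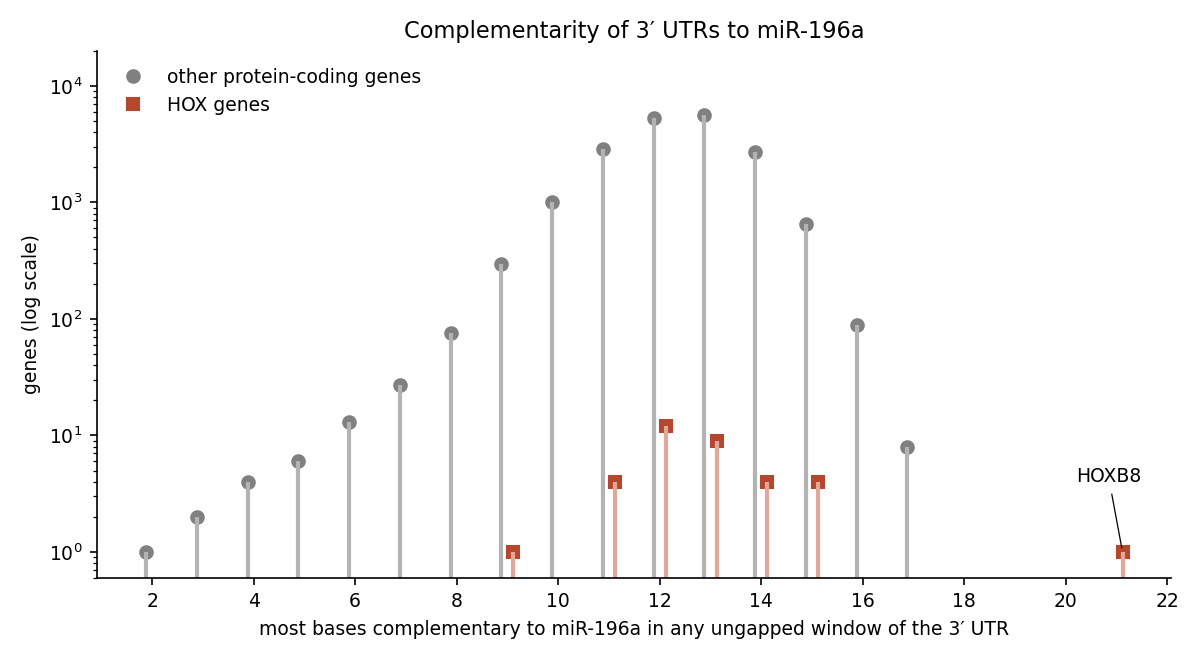
Genes by the largest number of bases complementary to the 22 bases of miR-196a in any ungapped window of their 3′ UTR; the y axis is the number of genes on a log scale, gray circles are other protein-coding genes and red squares HOX genes, and genes with no window are left out. HOXB8 stands at 21, and no other gene is above 17.

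The clusters were poor in repeats. Soft-masked bases, the lower-case letters by which NCBI marks repeats in the genome, made up 12.6% of HOXA, 25.8% of HOXB, 16.3% of HOXC and 13.4% of HOXD. Pooled, the share was 18.1%, against 35.2% in the 100 kb on either side, where the 4 values ran from 30.3% to 41.5%. Of 23943 windows of 100 kb on the assembled chromosomes, 0.109% had a share at or below that of HOXA, 10.4% at or below HOXB, 0.743% at or below HOXC and 0.2% at or below HOXD. Within HOXB the share was 17.5% from HOXB1 to HOXB8 and 38.0% in the 68.6 kb between HOXB8 and HOXB13, an interval split after seeing the data. The windows were all tiled over the genome, so neighbors are not independent. GC content was 51.5% to 54.98% in the clusters and 40.4% to 48.5% in the flanks. The ratio of CpG observed to expected was 0.451 to 0.601 in the clusters and 0.315 to 0.383 in the flanks.

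**Figure D5:**
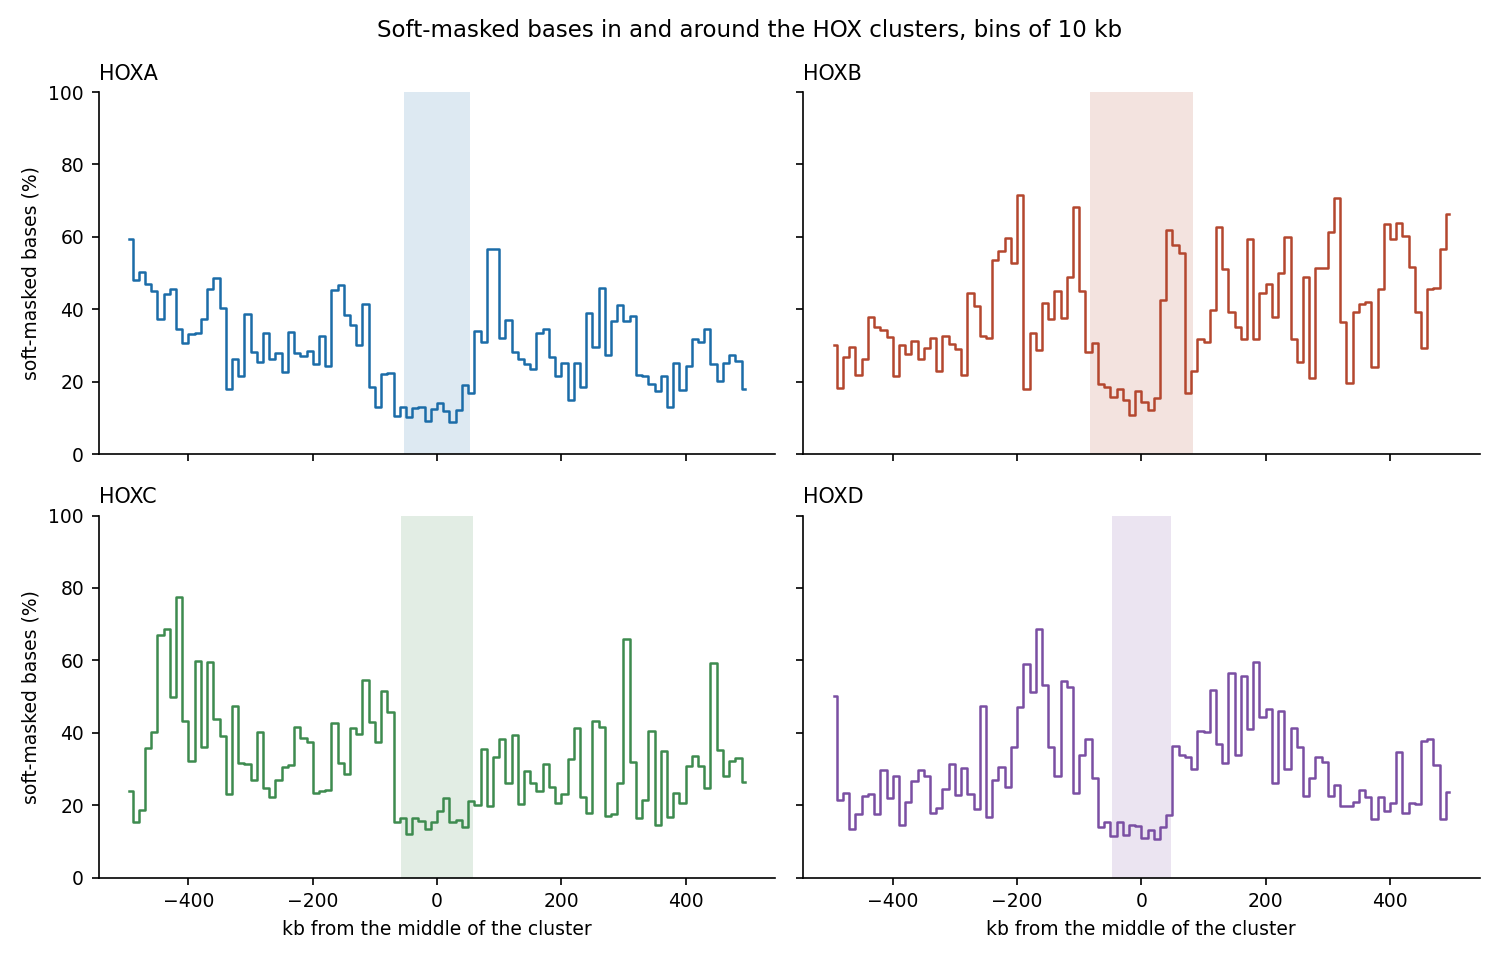
Soft-masked bases (percent of each 10 kb bin) in 1000 kb around the middle of each HOX cluster, in genome order; the shaded band is the cluster. The trace is low across the bands of HOXA, HOXC and HOXD, and in HOXB it rises on the right, in the interval between HOXB8 and HOXB13.

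Genes that work with or beside HOX proteins were read by the same measures. All 9 listed cofactors of the PBC and MEIS classes were found, and their median 3′ UTR was 1453 bases (range 279 to 2848). The 6 ParaHox genes, the sister cluster of the HOX genes, had a median of 1004 bases (144 to 1169), and 10 listed regulators of HOX transcription had 1335 bases (208 to 4676). The HOX median of 865 bases was the lowest of these groups and of the 95 other homeobox genes, while the ranges overlapped in every case.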

How the data were processed

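Droplet-based 3′ libraries (1 per animal) were made by the authors from 4 wild-type and 4 CFTR-/- newborn pigs. The deposited file is the authors' edited copy of the NCBI RefSeq annotation of Sscrofa11.1, in which they changed 3′ UTRs, overlaps and names by hand from read alignments; its values are start and end coordinates counted from 1, with no normalization. The submitters' processing notes name Cell Ranger 3.0.2. A gene's modeled 3′ end and shared exons affect which 3′ reads are counted for it.

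Gene models were read from the file and compared with RefSeq of the same build. UTRs were exon bases outside the coding sequence in the coding transcript reaching farthest 3′ or 5′; exon plans and proteins came from the transcript with the longest coding sequence. Homeodomains were 60 residues set by WFQNRR (47 before it). Flanks were 100 kb, and windows with over 10% unknown bases were left out. Whole proteins were aligned globally with Biopython 1.88. Bases were read with pysam 0.24.0 and samtools 1.23.1 under Python 3.11.15 (numpy 2.4.6, pandas 2.3.3, matplotlib 3.10.9). The repeat program is not given in the sources used here. No statistical test was run, since the file has no replicates: counts stand beside the share of all genes where that share was computed. Genes named are all members, genes within or next to the clusters, and the 3 longest and 3 shortest of each measure. Members, lists and measures were chosen with earlier results of these data known. The functions were tested on simulated gene models and planted motifs. Alternatives changed the transcript, the bounds of a gene, the comparison genes, windows and annotation. Expression was not analysed here. Some items that the naming rule covers are not reported here.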

Additional observations from a re-analysis of the deposited data

How the results depend on the processing

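No paired analysis was possible because coordinates do not vary between samples. The difference between the HOX median 3′ UTR and that of other protein-coding genes was 150 bases. It turned to -40 bases against genes with a name and to -135 bases against homeobox genes outside the clusters, and was 14 bases among genes with a 3′ UTR and 156 bases without HOXA5 (added after seeing the data). The median 5′ UTR was 558.5 bases in the transcript with the longest coding sequence. The median gap was 8043.5 bases between coding sequences, 5944 bases between spans of the transcript with the longest coding sequence and 3605.5 bases between pairs of consecutive number. Genes sharing exon bases fell from 6 to 2 when at least 100 shared bases were asked for. The repeat share of the clusters was 19.5% without HOX exons and 14.9% with HOXB ended at HOXB8 (added after seeing the data), and the difference from the flanks went from -17.1 to -15.9 percentage points with flanks of 500 kb. Identity within paralog groups was 44.5% over whole proteins. The other 11 of 24 alternatives left their result within 1.5 times its value, as did several of those listed here. Gene models from computation, without replicates, set these limits: UTR ends are only as good as the models, and no depth or expression was read.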
